A study of Rattus norvegicus with 12 samples.

Results

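Genes of coagulation, fibrinolysis and complement were followed in the wound tissue of diabetic rats. The group was set by symbol, with no value in the rule but with earlier results of these data known, as 46 genes, of which 43 were in both expression tables and 3 (F11, F13b, and Serpind1) were not. The count table held 25620 genes in all. The rats were male SD animals, supplied at an age of 8 to 12 weeks and made diabetic with streptozotocin (STZ), and every animal, controls included, carried a full-thickness punch wound of the dorsal skin. Control wounds received normal saline. The other wounds received d-SMG, the dried mucus gel of the snail *A. fulica*, s-GAG, the sulfated glycosaminoglycan of that gel (GAG in the sample labels), or Alg, a commercial alginate dressing. The tissue was labelled skin and was collected on days 3, 7, and 14, with 1 library for each treatment and day and 12 libraries in all. Whether a library held 1 animal or several is not given in the sources used here. The STZ model may lack features of a diabetic foot ulcer, such as its neuropathy.

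Coagulation is a cascade of proteases that ends when thrombin (F2) cuts fibrinogen, a protein of 3 different chains (Fga, Fgb, and Fgg), into fibrin. Tissue factor (F3) starts it on cells outside the vessel, and inhibitors such as Tfpi and the protein C system restrain it. Plasmin, made from Plg by the activators Plat and Plau, dissolves the clot. Complement is a parallel cascade of the blood and the tissues, started by C1, by lectins, or by the alternative pathway (Cfb, Cfp), and it ends in a membrane pore. The liver makes most of the circulating factors of both systems, while a number of them are also made locally by fibroblasts, macrophages, endothelium, and epithelium.

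The libraries held 13748887 to 38302461 reads on genes. All levels below are CPM, the usual depth-scaled read counts, here with library totals adjusted by TMM, unless FPKM is named, and each value is a single library. In bulk tissue, fewer cells of a type and less RNA per cell cannot be told apart. The libraries differed in tissue makeup. The summed level of the 12 skeletal muscle markers ranged from 4730 CPM (d-SMG, day 7) to 200604 CPM (d-SMG, day 3). The sum of the 8 keratinocyte markers found, of 10 listed, ranged from 44.6 CPM (d-SMG, day 3) to 37764 CPM (s-GAG, day 14). The d-SMG library of day 3 thus stood apart, with almost no keratinocyte reads although it was labelled skin, and it had the smallest TMM factor (0.741), followed by the s-GAG library of day 14 (0.744). In that s-GAG library 24.5% of all genes lay at least 4-fold from the control library of the day. Results below that rest on either library carry this limit, also where it is not repeated.

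The most abundant members per gene length were the C1 proteases, their inhibitor, and a pair of cell-surface proteins. In FPKM, C1r, the protease that starts the classical pathway, had the highest median over the 12 libraries (162, range 54.3 to 234). Anxa2, a cell-surface docking protein for plasminogen and its activator, followed (134, 75.6 to 242), and then C1s, the partner of C1r (129, 35.0 to 232), Serping1, the C1 inhibitor (109, 26.3 to 209), and Cd59, which blocks the membrane pore (84.5, 48.1 to 107). These 5 ranges overlapped, so that the order of neighbours was not resolved by the spread over libraries. Members typical of the liver were close to absent. F2 (thrombin) had 0 to 14 reads per library, Plg 1 to 7, F7 0 to 6, C5 0 to 6, Serpinc1 (antithrombin) 0 to 3, Proc (protein C) 0 to 3, Fgb 0 to 2, and F12 0 to 1. These 8 were the members that did not pass the filter on low counts, which left 35 of 43 for the tests. Of the 8 hepatocyte markers, Apoa2, Apob, Ttr, and Tat had at most 1 read per library, Ahsg 0 to 6, and Alb 0 to 15, while Apoa1 had 1 to 56 and Serpina1 1 to 657 (up to 23.9 CPM).

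**Figure D1:**
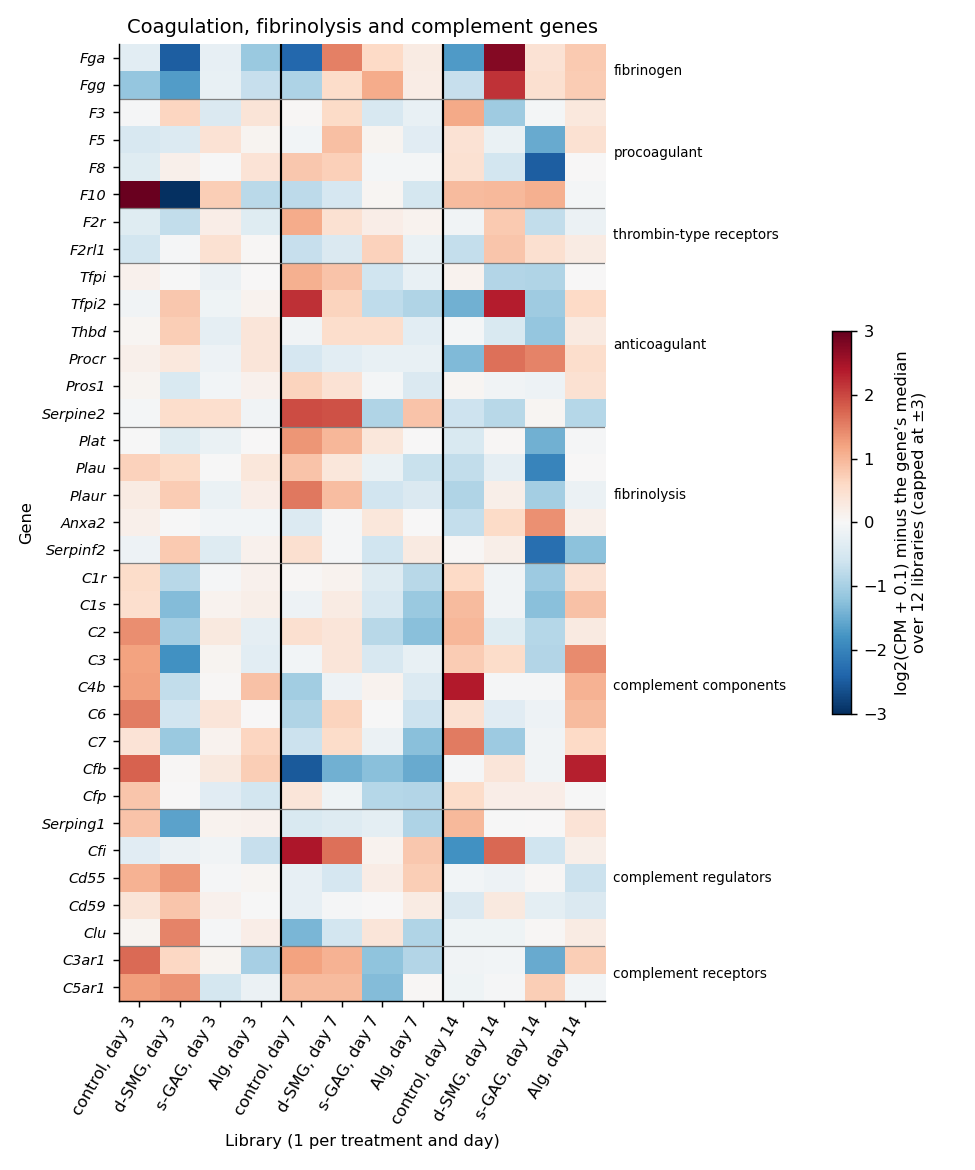
Level of the 35 members that passed the low-count filter (rows, grouped by role) in the 12 libraries (columns, by day), as log2(CPM + 0.1) minus the gene's own median over the libraries, capped at 3 either way. Fga is high in d-SMG on day 14, F10 in control on day 3, and most complement components are low in d-SMG on day 3 and high in control on days 3 and 14.

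Whether members differed with day or dressing beyond the spread between libraries was tested with edgeR's quasi-likelihood test over all genes. The tests by day and by treatment over the days (7 tests, 16110 genes) and those of the 3 dressed libraries against the lone control of each day, with the change of that difference over the days (4 tests, 16809 genes), called 0 members and 0 genes at an FDR of 0.05, a background of 0% in each of the 11 tests. At an unadjusted p under 0.05, members numbered 2 of 35 between days 14 and 3, 4 between days 7 and 3, 5 between days 14 and 7, 4 for the 3 dressings together, 2 for d-SMG, 6 for s-GAG, 2 for Alg, 4, 2, and 5 for the dressed libraries on days 3, 7, and 14, and 5 for the change over the days. Among all genes these counts were 798, 292, 502, 778, 218, 1492, 502, 394, 330, 1317, and 522. The median coefficient of biological variation was 0.43, with 6 residual degrees of freedom. DESeq2 called 1 member in 1 of the 11 tests, Procr on day 14, and between 0 and 288 genes in all.

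Single pairs of libraries were then described by size, without a test. A member was counted with at least 10 reads in the pair, and a 4-fold difference from the control library of the same day was taken as large. On day 3 this held for 7 of 36 members in d-SMG (1 higher, 6 lower, against a background of 7.85% of all genes), 1 of 35 in s-GAG (6.76%), and 3 of 35 in Alg (4.96%). On day 7 it held for 1 of 34 in d-SMG (3.38%), 7 of 35 in s-GAG (1 higher, 6 lower, 7.86%), and 4 of 34 in Alg (5.13%). On day 14 it held for 8 of 35 in d-SMG (5 higher, 3 lower, 7.91%), 6 of 34 in s-GAG (3 higher, 3 lower), where 24.5% of all genes passed, and 4 of 34 in Alg (all higher, 6.85%). The share of members was thus above the background in d-SMG on days 3 and 14, in s-GAG and Alg on day 7, and in Alg on day 14. It was below the background in s-GAG on days 3 and 14. In Alg on day 3 (8.57% against 4.96%) and d-SMG on day 7 (2.94% against 3.38%) it was near the background. Each Alg count was only 3 or 4 members. On day 3 the Alg count fell to 2 under RLE scaling (4.92% of all genes) and under plain library size (5.21%). Under plain library size the split became 0 higher and 9 lower in d-SMG on day 3, and 1 higher and 9 lower in s-GAG on day 14, because this scaling moved the median of all genes there by -0.43 and -0.45 on the log2 scale. The 3 pairs of a day share their control library and are therefore not independent.

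**Figure D2:**
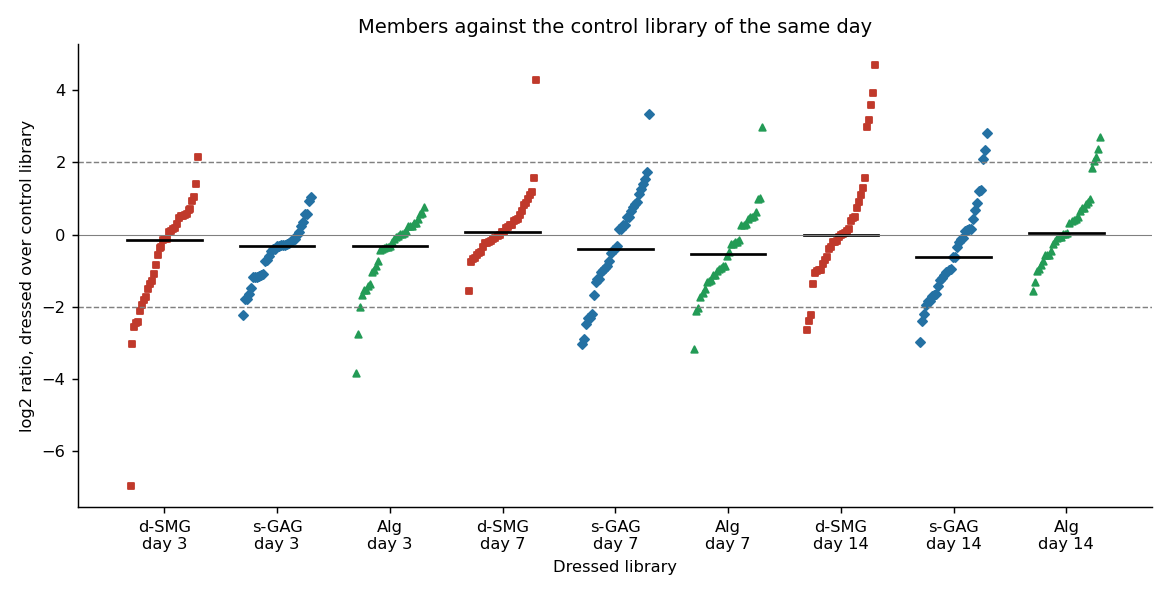
Log2 ratio of each dressed library over the control library of the same day for the members with at least 10 reads in the pair, sorted within each pair. Black bars are medians over members and dashed lines mark 4-fold. The lowest point is F10 in d-SMG on day 3 (-6.97) and the highest is Fga in d-SMG on day 14 (4.70).

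The fibrinogen genes lie side by side in the genome but were not expressed alike. Fga, the alpha chain, was read in every library and Fgg, the gamma chain, in 11, whereas Fgb, the beta chain without which the protein is not assembled, had 3 reads in all 12 libraries. The 200 bases before the annotated start of each gene are shown because the chains differed so clearly in level. They are RefSeq sequences of build GRCr8, read in the direction of the gene, and they lie at chr2:170652883-170653082 (plus strand), chr2:170671969-170672168 (plus strand, the first of 2 listed starts), and chr2:170700876-170701075 (minus strand). Capitals mark GTTAAT, a part of the motif of the hepatocyte factor HNF1, on either strand, and TATAAA, searched on both strands.
Fgg: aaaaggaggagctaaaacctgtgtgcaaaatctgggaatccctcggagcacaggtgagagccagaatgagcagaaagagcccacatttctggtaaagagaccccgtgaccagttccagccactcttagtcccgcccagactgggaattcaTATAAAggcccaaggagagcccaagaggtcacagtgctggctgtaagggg
Fga: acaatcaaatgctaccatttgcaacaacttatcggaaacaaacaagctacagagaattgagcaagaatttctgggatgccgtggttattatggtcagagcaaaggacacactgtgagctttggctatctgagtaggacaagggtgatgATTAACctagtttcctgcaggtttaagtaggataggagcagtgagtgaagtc
Fgb: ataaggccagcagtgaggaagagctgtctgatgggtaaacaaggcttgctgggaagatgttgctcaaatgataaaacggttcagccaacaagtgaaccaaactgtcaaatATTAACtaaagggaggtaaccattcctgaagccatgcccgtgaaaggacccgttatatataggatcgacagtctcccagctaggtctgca
These letters were in the windows of Fga and Fgb, 52 and 90 bases before the start, and not in that of Fgg, and they occurred in 5.12% of all 33469 promoter windows of this length. The TATA letters were in the window of Fgg only, in 10.4% of all windows. Such matches describe the letters and not binding.

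Fga was lower in the d-SMG library than in the others on day 3 and higher in every dressed library than in control on days 7 and 14. In control, d-SMG, s-GAG, and Alg, the order used throughout, its level was 1.43, 0.241, 1.49, and 0.784 CPM on day 3 (34, 3, 26, and 16 reads), 0.273, 5.34, 2.78, and 2.17 CPM on day 7 (4, 116, 108, and 32 reads), and 0.488, 12.7, 2.45, and 3.17 CPM on day 14 (10, 201, 36, and 51 reads). The dressed libraries did not overlap the 1 control library on days 7 and 14. Control was likewise below all 3 dressed libraries for 25.7% of all genes with at least 20 reads on day 7 and 28.6% on day 14. The d-SMG library was 19.6-fold above control on day 7 and 25.9-fold on day 14 (log2 4.70, counting interval 3.79 to 5.78). Over the 3 dressed libraries the log2 difference was 3.63 ± 1.44 (SE) on day 7 and 3.62 ± 1.37 on day 14, with an adjusted p of 1 and 0.604 in edgeR. Fgg was highest in the same d-SMG library (21 reads, 1.32 CPM) but had only 0 to 23 reads per library. It was higher in each dressed library than in control on days 7 and 14 (0.0683 against 0.271 to 0.593 CPM, and 0.0977 against 0.341 to 1.32 CPM). The summed hepatocyte markers were also lower in control than in the dressed libraries on day 7 (1.23 against 8.54 to 18.9 CPM) but not on day 14 (19.2 against 11.6 to 27.7 CPM), and most of that sum was Serpina1. The keratinocyte sum was lower in control on both days (4512 against 9249 to 20873 CPM, and 11814 against 20451 to 37764 CPM). On day 7 each of its markers was lowest in control. On day 14 this held for Krt5, Krt14, Krt6a, and Krt17, while Dsp lay among the dressed libraries. Krt1 (1653 against 33.9 to 1386 CPM), Krt10 (2333 against 25.5 to 1747 CPM), and Flg (283 against 3.15 to 53.1 CPM) were highest in control. The part of the hepatocyte and keratinocyte markers in the result was not tested.

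**Figure D3:**
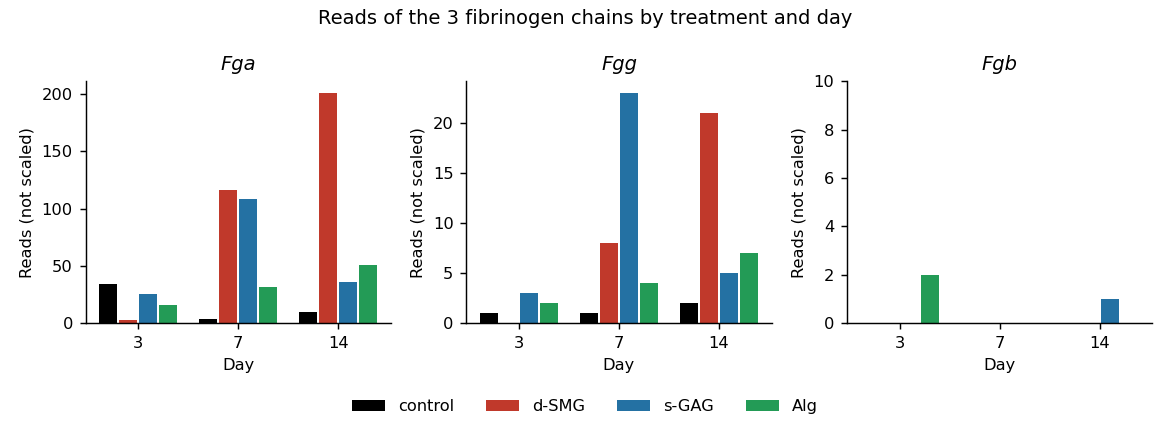
Reads of Fga, Fgg, and Fgb in each library by day (bars, 1 library each, not scaled for depth, with a different axis for each gene). The highest bar is Fga in d-SMG on day 14 with 201 reads, and Fgb has reads in 2 libraries.

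Among the procoagulant factors, F10 differed most. This protease converts prothrombin to thrombin and is also made by macrophages. Its level was 40.4, 0.322, 8.54, and 2.84 CPM on day 3, 2.94, 3.54, 5.28, and 3.52 CPM on day 7, and 9.96, 10.01, 10.8, and 4.91 CPM on day 14. The control library of day 3 stood above all the others and the d-SMG library of that day below them, with 962 against 4 reads, a 126-fold difference (log2 -6.97, counting interval -8.85 to -5.61). The s-GAG and Alg libraries of day 3 were 4.73-fold and 14.2-fold below control, so that the direction did not rest on the d-SMG library. It did rest on the single control library of day 3, which these ratios share. The log2 difference of the dressed libraries on day 3 was -3.36 ± 1.02 (adjusted p of 1 in edgeR). The summed macrophage markers (8 of 8 found) were 3331 CPM in that control against 1154 to 2077 CPM in the dressed libraries. Most of that sum in control was Lyz2 (2506 CPM). Cd163 (325, 404, 220, and 348 CPM) and Mrc1 (190, 202, 144, and 198 CPM) were not highest in control on day 3, while the other macrophage markers were. The interferon response genes (11 of 11) summed to 5256 CPM in control against 192 to 1438 CPM. The part of these marker lists was not tested.

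F8, the cofactor of the factor X activating complex and largely an endothelial product, had the highest median CPM of the procoagulant list. Its level was 23.1, 33.2, 29.4, and 39.4 CPM on day 3, 52.4, 48.9, 28.8, and 28.5 CPM on day 7, and 41.1, 20.4, 5.25, and 30.3 CPM on day 14. The lowest value belonged to s-GAG on day 14, 7.83-fold below control, and the summed endothelial markers (6 of 6) were lowest in that library too (162 CPM, against 212 to 653 CPM in the others). Pecam1, Cdh5, Kdr, and Tek were each lowest there. Emcn was slightly lower in d-SMG on day 14 (8.75 against 8.93 CPM). Egfl7 was instead higher in s-GAG on day 14 (22.6 CPM) than in control, d-SMG, and Alg of that day (12.5, 10.8, and 18.2 CPM). The part of these markers in the F8 level was not tested. F3 (tissue factor), the initiator, ranged from 11.1 CPM in d-SMG on day 14 to 51.7 CPM in control on the same day, a 4.66-fold difference. F5, the cofactor of factor Xa, ranged from 4.23 to 22.9 CPM without a 4-fold difference from control.

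The thrombin receptor F2r (PAR1) was highest in control on day 7. Its level was 11.8, 9.09, 17.6, and 11.9 CPM on day 3, 33.4, 21.0, 17.7, and 16.5 CPM on day 7, and 14.2, 26.4, 9.20, and 13.6 CPM on day 14, and no dressed library lay 4-fold from control. F2rl1 (PAR2), a receptor of trypsin-like proteases that keratinocytes carry, was lower in control than in all 3 dressed libraries on each day, at 3.70, 3.34, and 3.32 CPM in control against 4.005 to 9.88 CPM in the dressed libraries. The difference over the days was 0.92 ± 0.30 on the log2 scale for the 3 dressings together (adjusted p = 0.958) and 1.23 ± 0.35 for s-GAG (adjusted p = 0.426, both edgeR). The keratinocyte sum of control was below all 3 dressed libraries on days 7 and 14, though Krt1, Krt10, and Flg were highest in control on day 14. On day 3 the sum was 5317, 44.6, 13134, and 10544.5 CPM, so that d-SMG lay below control. F2rl1 was higher in that d-SMG library than in control (5.39 against 3.70 CPM). In FPKM, without the small TMM factor of that library (0.741), the 2 libraries were close (1.25 against 1.15). The part of these markers was not tested.

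Of the anticoagulant genes, Procr, the endothelial protein C receptor, separated the groups on day 14. Its level was 35.2, 39.7, 29.0, and 41.4 CPM on day 3, 22.7, 25.6, 27.4, and 27.3 CPM on day 7, and 12.7, 100.3, 89.1, and 46.0 CPM on day 14. The 4 libraries lay close together on days 3 and 7, and on day 14 control was below all 3 dressed libraries, an order seen for 28.6% of all genes. On day 14 the d-SMG library was 7.87-fold and the s-GAG library 6.99-fold above control, and the log2 difference of the dressed libraries was 2.62 ± 0.54. Its unadjusted p of 0.000832 was the smallest of any member in the edgeR tests, with an adjusted p of 0.494, and leaving out each other library in turn moved the difference between 2.41 and 2.89. DESeq2 gave 2.64 with an adjusted p of 0.000694, its only call among the members. On day 14 the keratinocyte sum was also lowest in control (11814 against 20451, 37764, and 21295 CPM), as was the hair follicle sum (8 of 8, 2647 against 4442, 6086, and 42075 CPM), and the endothelial sum was 343 against 212, 162, and 396 CPM. Of the keratinocyte markers, Krt1, Krt10, and Flg were instead highest in control on that day. Of the endothelial markers, Egfl7 was higher in s-GAG than in control (22.6 against 12.5 CPM), unlike the sum. The part of these marker lists in the result was not tested. Procr was also among the genes whose dressing effect changed with the day at an unadjusted p of 0.00801, with an adjusted p of 1.

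Tfpi2, a matrix-bound inhibitor of plasmin and the tissue factor complex, differed between control and d-SMG in opposite directions on days 7 and 14. Its level was 3.23, 6.19, 3.21, and 3.82 CPM on day 3, 16.5, 5.62, 2.04, and 1.83 CPM on day 7, and 1.22, 18.3, 1.64, and 5.41 CPM on day 14. Control was the highest library of day 7 and the lowest of day 14. The s-GAG and Alg libraries were 8.11-fold and 9.03-fold below control on day 7, and the d-SMG library was 15.0-fold above it on day 14. The log2 difference of the dressed libraries was -2.38 ± 0.999 on day 7 and 2.79 ± 1.33 on day 14 (adjusted p of 1 and 0.604 in edgeR), and the change over the days had an adjusted p of 1. Serpine2 (protease nexin 1), an inhibitor of thrombin and plasminogen activators from fibroblasts, was high in control and d-SMG on day 7 (68.0 and 66.1 CPM) and 7.37-fold lower in s-GAG (9.23 CPM). The fibroblast sum (7 of 7) had the same order there (44098 and 25959 against 8010 CPM), and its part was not tested. Tfpi ranged from 7.43 to 29.6 CPM, Thbd (thrombomodulin) from 4.50 to 17.0 CPM, and Pros1 (protein S) from 11.9 to 26.3 CPM.

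**Figure D4:**
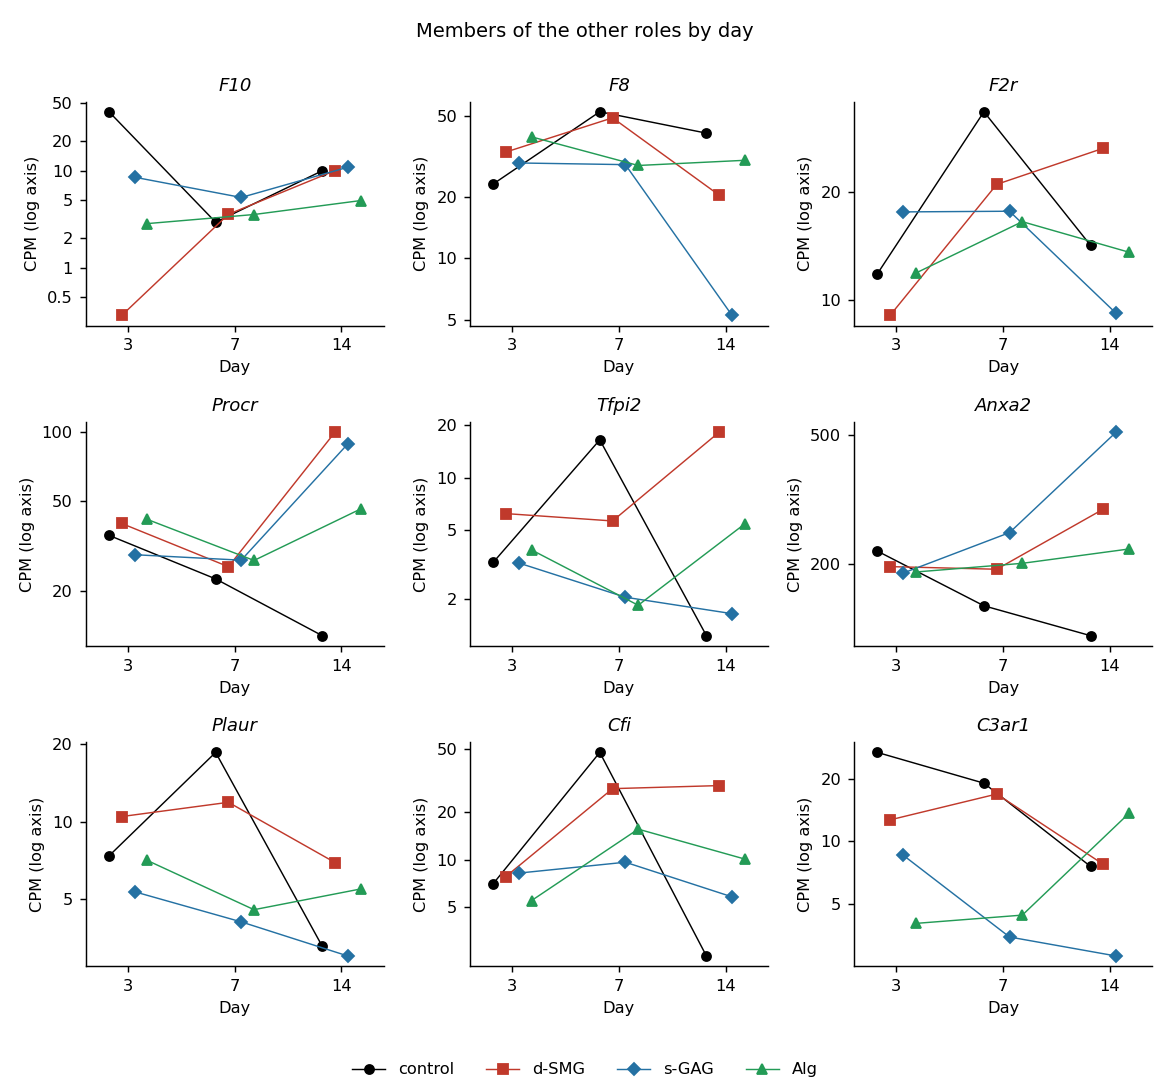
Level in CPM (log axis, each panel with its own range) of 9 members by day, 1 point per library with lines joining the libraries of a treatment, which were different samples. Control is the highest library of day 7 for Tfpi2, Plaur, and Cfi, and the lowest of day 14 for Procr, Tfpi2, Anxa2, and Cfi.

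In fibrinolysis, Anxa2 was the most abundant member. Its level was 220, 197, 188, and 189 CPM on day 3, 149, 193, 250, and 201 CPM on day 7, and 120, 296, 512, and 223 CPM on day 14. Control was above the dressed libraries on day 3 and below them on days 7 and 14, and s-GAG on day 14 was 4.26-fold above control. The log2 difference of the dressed libraries on day 14 was 1.51 ± 0.54 (adjusted p = 0.604, edgeR). Anxa2 is also abundant in keratinocytes, whose summed markers were highest in that s-GAG library. Of these markers, Krt5, Krt14, and Krt17 were highest there and the others were not. Their part was not tested. Plaur, the urokinase receptor, was 7.35, 10.5, 5.33, and 7.05 CPM on day 3, 18.6, 11.9, 4.07, and 4.54 CPM on day 7, and 3.27, 6.92, 3.00, and 5.47 CPM on day 14. On day 7 control was highest, 4.56-fold above s-GAG and 4.09-fold above Alg. The activators Plat (tissue type) and Plau (urokinase) were likewise highest in control on day 7 (150 and 55.6 CPM) and lowest in s-GAG on day 14 (21.7 and 7.77 CPM). Serpinf2, the plasmin inhibitor of plasma, stayed at 1 to 17 reads per library.

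Of the 9 complement components tested, C1r, C1s, C4b, and C7 had their highest level of all 12 libraries in control on day 14. C2, C6, and Cfp had it in control on day 3, and C3 and Cfb in Alg on day 14. How many of all genes had such an order was not counted. The fitted difference of the dressed libraries from control was below 0 for 9 of 9 on day 3 (44.97% of all genes), 4 of 9 on day 7 (46.1%), and 8 of 9 on day 14 (48.2%). Its median over the components was -1.12, 0.01, and -0.73 on the log2 scale, against 0.07, 0.04, and 0.04 over all genes. The 10 components together (C5 included) summed to 2783, 822, 1588, and 1894 CPM on day 3, 1228, 1624, 1149, and 794 CPM on day 7, and 3364, 1385, 942, and 2907 CPM on day 14. On day 3, 8 of the 9 were lowest in d-SMG (33.1% of all genes with at least 20 reads) and 8 were highest in control (24.7%). The exceptions were Cfp, which was lower in s-GAG and Alg (7.80 and 6.76 CPM) than in d-SMG (9.89 CPM), and C7, which was highest in Alg (208 CPM). In that d-SMG library, which had almost no keratinocyte reads, C3, the hub of all pathways, was 8.23-fold below control (10.6 against 87.4 CPM), C2 5.36-fold, and C6 4.31-fold, and the regulator Serping1 5.49-fold. The order on day 7 was different, with the sum of the 10 components highest in d-SMG and lowest in Alg. None of these differences passed the FDR. In edgeR the smallest adjusted p of the components was 0.463, for Cfp (properdin) in s-GAG over the days (-0.92 ± 0.30).

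C1r was 659, 253, 438, and 490 CPM on day 3, 466, 490, 347, and 254 CPM on day 7, and 686, 421, 211, and 611 CPM on day 14. It was above the dressed libraries in control on days 3 and 14, with no 4-fold difference. C1s followed it closely, with 0.859 to 1.61 reads of C1r per read of C1s, although C1s was 4.62-fold below control in s-GAG on day 14 (163 against 752 CPM). C4b, the thioester component of the classical pathway, was 491, 126, 216, and 388 CPM on day 3, 103, 189, 226, and 158 CPM on day 7, and 1089, 206, 206, and 435 CPM on day 14. Control held the highest value on days 3 and 14 and the lowest on day 7. On day 14 it was 5.28-fold above d-SMG and 5.29-fold above s-GAG, and the log2 difference of the dressed libraries was -1.95 ± 0.62 (adjusted p = 0.596, edgeR). C4b has a near-identical copy, C4a, and the split of reads between them is uncertain. C4a ran alongside, at 493 CPM in control on day 14 against 112 to 236 CPM. C7, a part of the membrane pore, was 6.22-fold below control in d-SMG on day 14 (62.8 against 391 CPM).

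Cfb, the protease of the alternative pathway, was ordered by day in all 4 treatments. It was described after its values were seen. Its level was 440, 132, 159, and 215 CPM on day 3, 22.5, 47.7, 54.1, and 45.4 CPM on day 7, and 127, 166, 120, and 653 CPM on day 14. All 4 libraries of day 7 lay below all 4 of day 3 and all 4 of day 14. The log2 difference was -2.41 ± 0.63 between days 7 and 3 and 2.32 ± 0.63 between days 14 and 7, with an adjusted p of 0.999 and 0.904 in edgeR. The Alg library of day 14 was 5.14-fold above its control. C2, the matching protease of the classical pathway, was lower in all 3 dressed libraries on each day, with a log2 difference of -1.27 ± 0.40 over the days (adjusted p = 0.958), as was Cfp, which stabilizes the alternative convertase (-0.86 ± 0.23, adjusted p = 0.931).

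**Figure D5:**
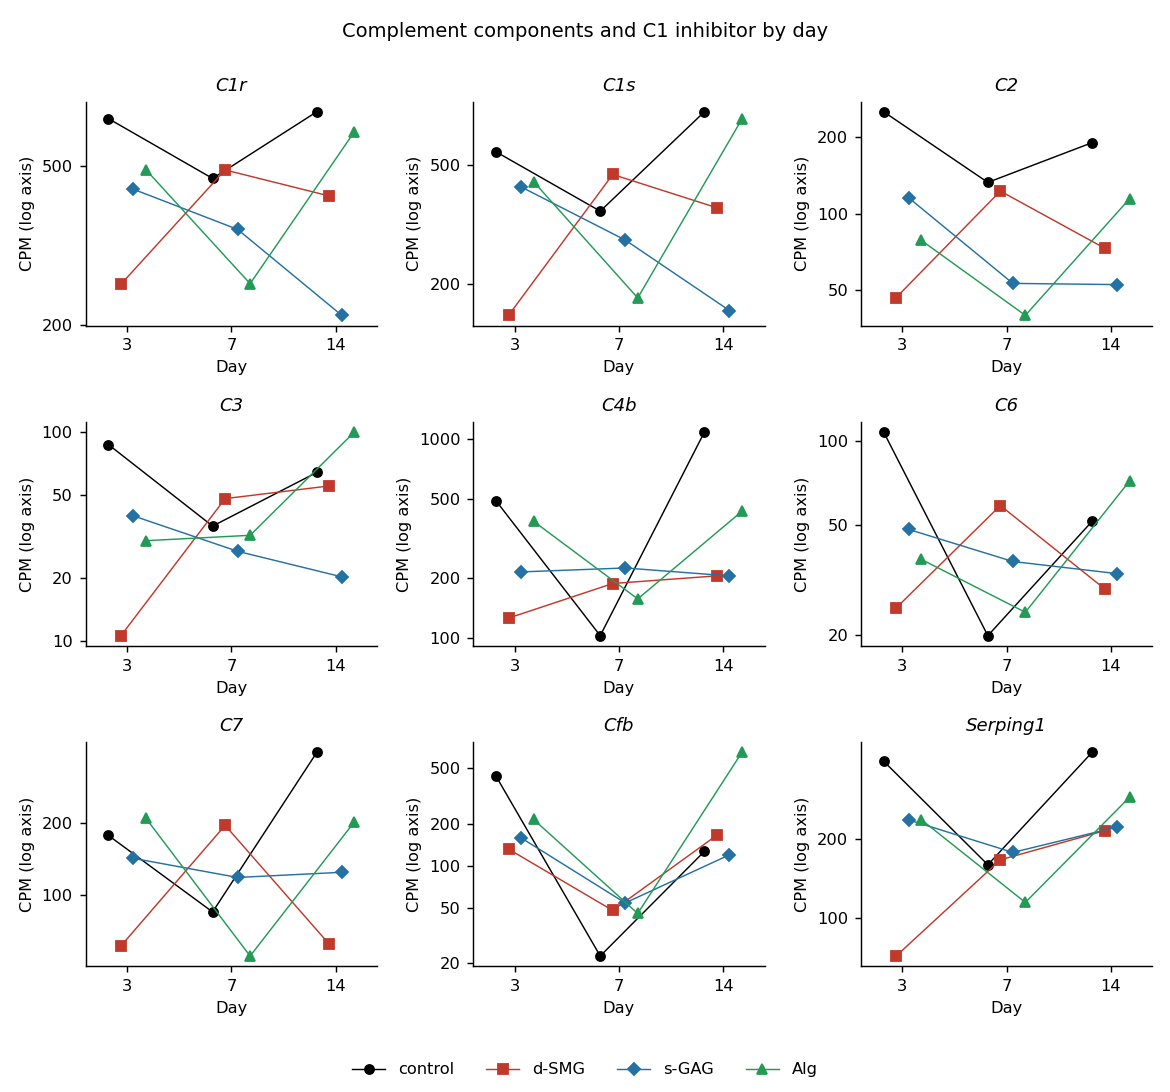
Level in CPM (log axis, each panel with its own range) of 8 complement components and Serping1 by day, 1 point per library, with lines joining the libraries of a treatment. The d-SMG library is the lowest of day 3 in these 9 panels, unlike for Cfp, which is not shown, and the 4 points of day 7 lie below all other points for Cfb.

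The macrophage sum was highest in control on day 3 (3331 against 1154 to 2077 CPM), though Cd163 and Mrc1 were not. On day 14 it was lower in d-SMG and s-GAG than in control and Alg (1285 and 436 against 2033 and 2591 CPM). The markers did not all share this order. On day 14 Lyz2 (823 against 780 CPM), Cd14 (16.6 against 9.62 CPM), and Fcgr1a (19.1 against 15.4 CPM) were higher in d-SMG than in control. Cd14 was also higher in s-GAG (11.9 CPM) than in control. The C1q chains C1qa, C1qb, and C1qc, which macrophages make, had their lowest values in Alg on day 7 (121, 24.3, and 17.8 CPM). The interferon sum was 5256 CPM in control and 192 CPM in d-SMG on day 3. In the d-SMG library of day 3 the muscle sum was the highest and the keratinocyte sum the lowest of all libraries. The part of these differences in the complement result was not tested. Without the d-SMG library of day 3, no test called a member.

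Among the regulators, Serping1 (C1 inhibitor), which also restrains the contact factors, was 395, 72.0, 236, and 237 CPM on day 3, 160, 167, 178, and 115 CPM on day 7, and 426, 215, 222, and 288 CPM on day 14. All 4 libraries of day 14 lay above all 4 of day 7. Cfi, the protease that inactivates C3b and C4b, had another course, at 7.01, 7.80, 8.20, and 5.49 CPM on day 3, 47.8, 28.2, 9.61, and 15.6 CPM on day 7, and 2.44, 29.5, 5.79, and 10.1 CPM on day 14. The libraries were close on day 3, control was the highest on day 7, and on day 14 it was the lowest, 12.1-fold below d-SMG. The log2 difference of the dressed libraries on day 14 was 2.63 ± 1.01 (adjusted p = 0.604), and that between days 7 and 3 was 1.66 ± 0.67 (adjusted p = 0.999, both edgeR). In CPM, the membrane shields Cd55 and Cd59 and the chaperone Clu (clusterin) were all highest in d-SMG on day 3 (41.1, 306, and 256 CPM). Over the other 11 libraries Clu ranged from 35.4 to 118 CPM. In FPKM, without the small TMM factor of that library (0.741), Clu was still highest there (86.9). Cd55 was then higher in control on day 3 (5.22 against 4.71), and Cd59 was slightly higher in d-SMG on day 14 (107.45 against 105.03).

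The anaphylatoxin receptor C3ar1, carried by myeloid cells, was 26.9, 12.7, 8.60, and 4.02 CPM on day 3, 19.1, 16.9, 3.45, and 4.41 CPM on day 7, and 7.57, 7.74, 2.80, and 13.7 CPM on day 14. Control exceeded all dressed libraries on days 3 and 7, and Alg was highest on day 14. The Alg library was 6.70-fold below control on day 3 and 4.34-fold on day 7, and s-GAG 5.53-fold on day 7. Over the days s-GAG differed from control by -1.87 ± 0.68 on the log2 scale (adjusted p = 0.499, edgeR). C5ar1, the receptor of C5a, was 4.93-fold below control in s-GAG on day 7 (2.78 against 13.7 CPM), where the macrophage sum was 1058 against 2502 CPM and the neutrophil sum (7 of 7) 40.1 against 104 CPM. The part of these cells was not tested.

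The order of control against the dressed libraries was counted over the members. Control lay above all 3 dressed libraries for 15 of 35 members on day 3 (24.7% of all genes with at least 20 reads), 15 of 35 on day 7 (25.7%), and 10 of 35 on day 14 (29.6%). It lay below all of them for 3 of 35 on day 3 (22.2%), 11 members on day 7 (25.7%), and 9 members on day 14 (28.6%). The share of members was thus above the background for control as the highest library on days 3 and 7, and below it for control as the lowest on day 3. For control as the lowest on day 7, and for both counts of day 14, it was near the background. Between days, no overlap of the 4 libraries was seen for Cfi (day 7 above day 3, 1.08% of genes), Procr and Cfb (day 7 below day 3, 0.96%), and Cfb and Serping1 (day 14 above day 7, 0.899%). For 0 members did all 4 libraries of day 14 lie below those of day 7 (0.725%), above those of day 3 (0.965%), or below those of day 3 (0.704%).

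A further 51 genes of the same pathways were listed, of which 46 were in the files. In the 7 tests by day and treatment 33 of them were tested, in the other 4 tests 35, and 0 were called. Kng1 and Kng2, the kininogens, whose sequences are alike so that their reads may be split wrongly, were, like Fga, lowest in d-SMG on day 3 and above control in all 3 dressed libraries on day 7, with 0 and 3 reads in d-SMG on day 3 and levels in d-SMG 26.1-fold and 20.4-fold above control on day 7. F13a1, the subunit of the fibrin crosslinker that macrophages make, was 210, 45.3, 21.3, and 162 CPM on day 14, 4.64-fold and 9.90-fold below control in d-SMG and s-GAG. C9 and Cpb2, which are made in the liver, were close to 0, as was Serpina5.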

How the data were processed

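Wound tissue RNA was depleted of rRNA, and stranded libraries were read from both ends for 150 bases. The authors deposited read counts of 25620 genes as whole numbers without normalization, and FPKM values for 25524 genes, which correct for transcript length and depth. The submitters' processing notes name bcl2fastq, FastQC, TopHat2, and edgeR. The genome build is not given in the sources used here. Each table holds 1 further column of values that matches no described sample and was not used. Groups were taken from the sample labels, with 1 library per treatment and day.

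Counts were fitted with edgeR 4.0.16 in R 4.3.3 (TMM, filterByExpr, glmQLFit, glmQLFTest) over all genes, with Benjamini-Hochberg adjustment at 0.05. One model had day and treatment as terms, so that treatments are the replicates of a day and days those of a treatment. The other had 6 means, control and dressed on each day, in which the lone control is taken to vary like the dressed libraries. P-values measure the spread between these libraries only. Pairs of libraries were compared as ratios of TMM-scaled counts, with fewer than 3 reads set to 3 and exact intervals at 95% (Clopper-Pearson), which cover counting error only. Genes given with all 12 values were members more than 4-fold from control in at least 2 pairs with 50 or more reads in the higher library, and the member of each role with the highest median CPM. The members, lists, and tests were chosen with earlier results of these data known. The scripts were tested on simulated data. Of the 46 symbols, 32 had an entry in the RefSeq promoter table. Alternatives were RLE and library-size scaling, no filter, DESeq2 1.42.0, other models, each library left out, and other limits for pairs. Some results on other genes of these pathways are not reported here.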

Additional observations from a re-analysis of the deposited data

How the results depend on the processing

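No member was called in 182 of the 183 refits of the 11 tests. The exception was Procr on day 14, 1 member called by DESeq2. Leaving out each library in turn gave 0 to 0 members called in every test. The design kept the contrast in 12 such refits for the tests by day and treatment, 11 for the dressed libraries of each day, and 9 for the change over the days. Without the replicate block, that is without the other factor, and with only the libraries compared, 0 members were called in each test that could be refitted, and for the 3 dressings together the second setting is the same fit. No paired analysis was possible beyond this because each group held 1 library. None of the log2 differences of named members with an unadjusted p under 0.05 changed sign under these settings. Over all genes edgeR called 0 in each test, while DESeq2 called 136 for the 3 dressings, 9 for d-SMG, 288 for s-GAG, 88 for Alg, 39 between days 14 and 3, 7 between days 14 and 7, 0 between days 7 and 3, 13, 1, and 105 for the dressed libraries of days 3, 7, and 14, and 12 for the change over the days. With only the libraries compared, edgeR called 12 genes for s-GAG and 9 for Alg. Without the d-SMG library of day 3 it called 66 genes for s-GAG and 1 for the dressed libraries of day 7, without the Alg library of day 7 it called 1 for s-GAG, and without the filter 1 for s-GAG, no member among them. The cause was not tested.

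The number of members more than 4-fold from control depended on the limit. At 2-fold it was 16 of 36, 12 of 35, and 9 of 35 on day 3 for d-SMG, s-GAG, and Alg, against 22.9, 25.4, and 20.2% of all genes. On day 7 it was 5 of 34, 17 of 35, and 14 of 34 (13.1, 24.4, and 24.4%). On day 14 it was 14 of 35, 19 of 34, and 8 of 34 (28.7, 57.8, and 21.3%), so that the s-GAG count was near its background. In FPKM with a pseudocount of 1 it was 0 for s-GAG (1.38% of all genes) and 1 for Alg (0.964%) on day 3. It was 0, 3, and 1 on day 7 (0.965, 1.87, and 0.926%) and 1 for Alg on day 14 (2.30%). Low genes such as Fga no longer passed on day 7 or in Alg on day 14, while Fga in d-SMG on day 14 still did. In d-SMG on day 3 it was 8, all lower (2.34%). On day 14 it was 4 higher and 2 lower in d-SMG (2.04%), and 1 higher and 4 lower in s-GAG (8.68%). Under plain library size it was 10 for s-GAG on day 14 (26.1% of all genes). Of 104 single-pair log2 ratios of the named members under other scalings, 30 moved beyond their counting interval and 0 changed sign, and 24 of the 30 did so in FPKM with a pseudocount of 1, which pulls low genes toward 0. There Fga in d-SMG on day 14 was 2.24 instead of 4.70, and F10 in d-SMG on day 3 -4.45 instead of -6.97. Of the 54 counts of members under other settings, 38 stayed within 1.5 times of the main count and 16 did not. Depth limits the genes near 0 reads, for which a pair of libraries can show no difference.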

Other observations

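Over the 33 members with at least 3 reads in every library, the highest level was 2.21-fold to 126-fold above the lowest, with a median of 6.29-fold.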
